A study of Rattus norvegicus with 9 samples.

Results

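Messenger RNA of 10 amino acid transporters was followed in HEI-OC1 cells given cisplatin, neomycin or phosphate-buffered saline (PBS) for 24 h. The genes were Slc3a2, Slc7a5, Slc7a11, Slc7a1, Slc1a4, Slc1a5, Slc38a1, Slc38a2, Slc6a9 and Slc43a1, taken by symbol from a table of 19608 genes. All 10 were in the table and all 10 passed the filter on low values. HEI-OC1 is an immortalized line from the mouse organ of Corti, used as a hair cell-like model, and here each treatment has 3 libraries, 9 in all. Cisplatin is a platinum drug that crosslinks DNA, neomycin is an aminoglycoside antibiotic, and both can damage hearing. The cell line label ends in a different number in each of the 9 samples, but the series design mentions only HEI-OC1, and all 9 were taken to be that line. All groups share the time, and no source used here states a drug dose.

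Amino acids cross the plasma membrane mainly through carriers. Some carriers are sodium-driven and load the cell with small neutral amino acids and glutamine, and others exchange what has been loaded for leucine, cystine and other amino acids. Leucine that enters this way is sensed by the mTORC1 kinase complex, cystine is reduced to cysteine for the antioxidant glutathione, and arginine and lysine come in through their own carrier. Transcription of many of these carriers is known to be raised by ATF4, the transcription factor of the amino acid response, and Slc7a11 also by the oxidative stress factor NRF2.

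The scaling totals of the libraries, worked out from the steps in their values, ran from 27516629 to 40221089 reads. Replicates of a group were further apart than counting error alone gives (chi-square per degree of freedom 3.98 to 12.4), and the highest values were those of PBS replicate 1 against the other PBS libraries. Of 11 hair cell markers only Myo6 and Myo7a averaged at least 1 FPKM (fragments scaled to gene length and library size). The hair cell genes Pou4f3, Otof and Slc26a5 were at most 0.0455 FPKM in any library. Fibroblast markers were abundant, with 5 of 6 at 1 FPKM or more. Their summed level was 1272 to 1422 FPKM with cisplatin, 3987 to 4038 FPKM with neomycin and 4714 to 5103 FPKM with PBS. Nearly all of it came from the collagen genes Col1a1, Col1a2 and Col3a1. With cisplatin all 6 markers averaged below PBS. With neomycin the collagen genes did, while Pdgfrb (63.0 against 52.1 FPKM), Lum (2.12 against 1.32 FPKM) and Dcn averaged above PBS. The part of these levels in the results below was not tested. Supporting cell markers summed to 79.1 to 80.1 FPKM with cisplatin, 39.0 to 40.3 FPKM with neomycin and 53.7 to 59.4 FPKM with PBS. Of these markers 4 of 6 were at 1 FPKM or more. Hes1 alone averaged 59.6, 23.1 and 29.8 FPKM in the same order. Every cisplatin library lay above every PBS library for Hes1 and Lfng, and below for Sox9 and Jag1. Averaged over all libraries, 1 of 3 epithelial markers and 0 of 3 leukocyte and of 3 endothelial markers reached 1 FPKM. The leukocyte marker Cd68, a lysosomal protein of macrophages, was nevertheless at 1.56, 1.57 and 1.91 FPKM with cisplatin, 0.205, 0.151 and 0.219 FPKM with neomycin and 0.205, 0.145 and 0.261 FPKM with PBS. Its part in the results was not tested, and the leukocyte markers Itgam and Csf1r were at most 0.0683 FPKM in any library.

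Both drugs were followed by less mRNA of most of the carriers. With neomycin 8 of the 10 genes fell and Slc38a1 rose, where 28.7% of the 10532 tested genes fell and 37.5% rose (limma, adjusted p below the threshold of 0.05). With cisplatin 8 fell and 0 rose, where 30.5% of tested genes fell and 47.5% rose. The median log2 change of the 10 genes was -0.52 with cisplatin and -1.06 with neomycin, beside 0.12 and 0.04 over all tested genes. Falls of at least 2-fold were called for 5 of the 10 genes with neomycin and for 2 with cisplatin, against 0.646% and 3.36% of all tested genes. The 10 genes were chosen with earlier results of these data known, so the shares of all genes are a background and not a test. Both drugs are set against the same 3 PBS libraries. In whole cultures less RNA per cell and a smaller share of cells that make it cannot be told apart.

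The scaling of the libraries bore on small changes. With trimmed-mean (TMM) factors the median of all genes moved by -0.13 for cisplatin and -0.08 for neomycin. For cisplatin the calls divided as 3918 higher and 4165 lower against 5001 and 3215 on the values as deposited. For neomycin they divided as 3106 and 3867 against 3953 and 3020. The counts for the 10 carriers became 0 higher and 9 lower with cisplatin, since Slc38a1 was then called lower, and stayed at 1 and 8 with neomycin.

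**Figure D1:**
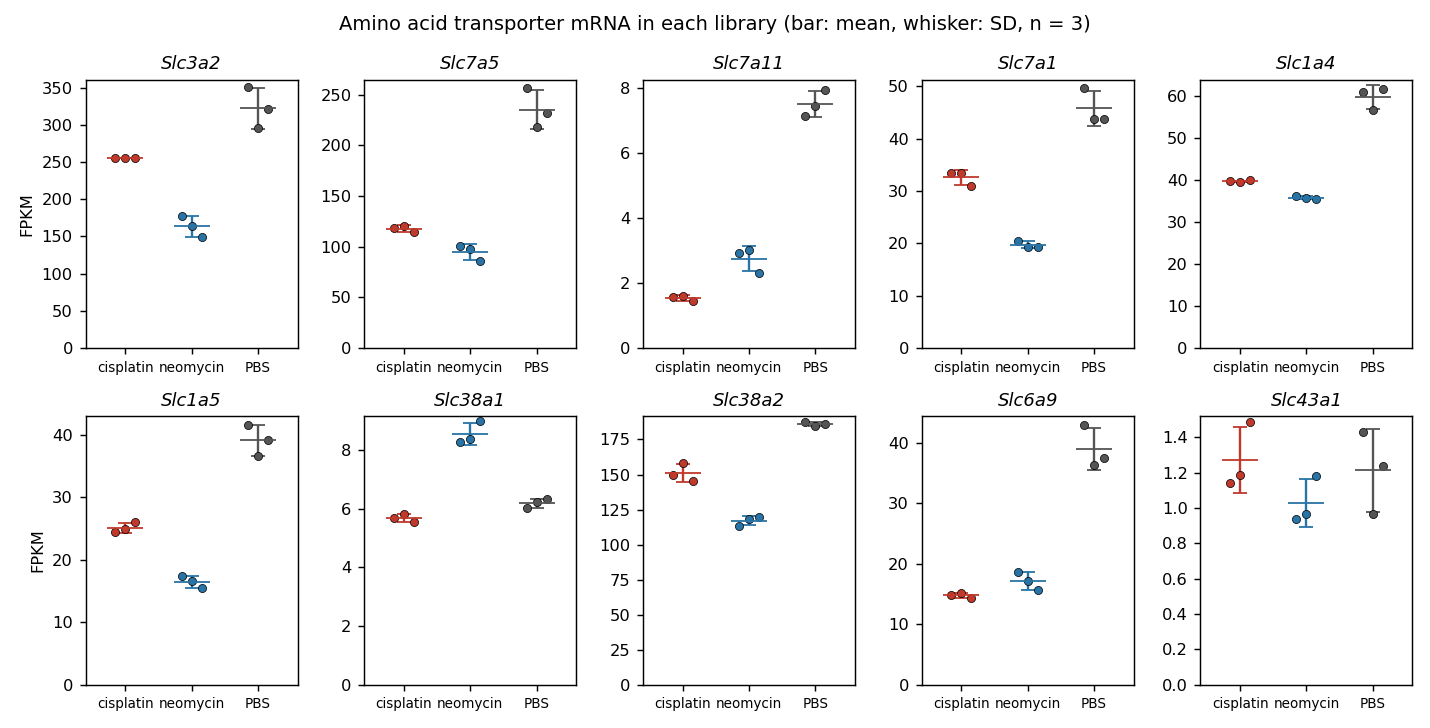
FPKM of the 10 amino acid transporters in each library, with cisplatin, neomycin and PBS from left to right. Points are libraries, bars are means and whiskers are the SD of 3 libraries, and each panel has its own axis from 0. For 8 genes every library of either drug lies below every PBS library, as for 10.1% of all tested genes, while neomycin libraries of Slc38a1 lie above the others and the groups of Slc43a1 overlap.

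Promoters are shown for the 3 carriers whose start region holds the core of the C/EBP-ATF response element, the DNA sequence that ATF4 binds with C/EBP partners, because Slc7a1 and Slc1a4 fell with neomycin and Slc38a1 rose. The rat RefSeq table of assembly GRCr8 gave windows from 250 bases before to 50 bases after the annotated start for 9 of the 10 genes, with windows at 2 starts for Slc3a2. It gave none for Slc1a5. The windows are rat sequence, whereas the cells are of mouse origin. The search was for TGATGNAA on either strand. Capitals mark the match, which starts 30 bases upstream of the start in Slc7a1 (chr12:11664238-11664537, plus strand), 235 bases upstream in Slc1a4 (chr14:98761513-98761812, minus strand) and 142 bases upstream in Slc38a1 (chr7:129681352-129681651, minus strand).
Slc7a1: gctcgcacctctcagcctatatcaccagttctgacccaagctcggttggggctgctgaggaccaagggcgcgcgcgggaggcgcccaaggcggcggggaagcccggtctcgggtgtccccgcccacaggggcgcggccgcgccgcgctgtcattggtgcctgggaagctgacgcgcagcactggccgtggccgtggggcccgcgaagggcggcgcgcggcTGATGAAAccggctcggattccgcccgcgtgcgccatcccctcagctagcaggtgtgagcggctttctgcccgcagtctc
Slc1a4: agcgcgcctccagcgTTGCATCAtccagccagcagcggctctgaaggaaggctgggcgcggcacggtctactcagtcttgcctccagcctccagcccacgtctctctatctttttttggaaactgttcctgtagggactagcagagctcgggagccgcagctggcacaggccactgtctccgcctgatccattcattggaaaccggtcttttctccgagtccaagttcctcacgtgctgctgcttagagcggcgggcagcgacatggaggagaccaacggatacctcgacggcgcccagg
Slc38a1: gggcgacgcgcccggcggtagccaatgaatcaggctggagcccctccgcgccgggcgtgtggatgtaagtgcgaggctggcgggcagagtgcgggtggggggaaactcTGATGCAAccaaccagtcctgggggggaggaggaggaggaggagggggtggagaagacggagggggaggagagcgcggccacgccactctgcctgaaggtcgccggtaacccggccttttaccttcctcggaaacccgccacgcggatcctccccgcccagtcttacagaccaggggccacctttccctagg
These letters were in 3.98% of 33469 rat promoter windows of the same length. The E-box CACGTG was in the windows of Slc7a5, Slc1a4 and Slc43a1 and in 6.42% of all windows. The core TGACNNNGC of the antioxidant response element was in those of Slc3a2 (1 of its starts), Slc7a1 and Slc38a2 and in 12.1% of all windows. No match overlapped a match to another motif. A match is a description of letters in the window and not a binding site, and a window without one says nothing about the factor.

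Slc3a2 encodes 4F2hc, the heavy chain that carries the light chains of several exchangers to the cell surface. Its level was 256, 256 and 255 FPKM in the cisplatin libraries, 177, 165 and 149 FPKM in the neomycin libraries and 351, 296 and 321 FPKM in the PBS libraries. The 3 groups did not overlap, with neomycin lowest and cisplatin between neomycin and PBS. Slc3a2 fell by 0.97 ± 0.06 on the log2(FPKM + 1) scale with neomycin (SE; limma adjusted p = 2.9e-08) and by 0.33 ± 0.06 with cisplatin (adjusted p = 3.3e-04). Quantile normalization gave a fall of 0.50 with cisplatin.

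Slc7a5 encodes LAT1, the light chain that exchanges leucine and other large neutral amino acids. It stood at 119, 120.4 and 114 FPKM with cisplatin, 101, 97.6 and 86.2 FPKM with neomycin and 256, 218 and 232 FPKM with PBS. All 6 drug libraries lay below the PBS libraries, and the drug groups did not overlap each other. The fall was 1.30 ± 0.06 with neomycin (adjusted p = 2.1e-09) and 0.99 ± 0.06 with cisplatin (adjusted p = 4.3e-09), both on the log2 scale.

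Slc7a11 encodes xCT, the light chain that takes up cystine in exchange for glutamate. Its level was 1.57, 1.60 and 1.44 FPKM with cisplatin, 2.91, 3.02 and 2.31 FPKM with neomycin and 7.13, 7.45 and 7.92 FPKM with PBS. Cisplatin libraries were lowest and the 3 groups did not overlap. These levels rest on 611 to 731 reads a library with cisplatin, 932 to 979 with neomycin and 2730 to 3566 with PBS, over a gene model of 11771 bases. The mean changed by -79.5% with cisplatin (log2 change -1.74 ± 0.08, adjusted p = 1.2e-10) and by -63.4% with neomycin (log2 change -1.19 ± 0.08, adjusted p = 2.7e-08). The log2 changes understate falls at this low level, and with a pseudocount of 0.1 they were -2.22 with cisplatin and -1.42 with neomycin.

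Since both light chains need the heavy chain, their levels were also set against Slc3a2 within each library. The Slc7a5 level per Slc3a2 level was 0.460 ± 0.012 with cisplatin, 0.580 ± 0.012 with neomycin and 0.730 ± 0.008 with PBS (SD, n = 3 each). For Slc7a11 the ratio was 0.0060 ± 0.0003 with cisplatin, 0.0168 ± 0.0014 with neomycin and 0.0234 ± 0.0027 with PBS. The 3 groups were separate for both ratios, in the order cisplatin, neomycin, PBS. Relative to Slc3a2, Slc7a5 was lower by a log2 difference of -0.67 and Slc7a11 by -1.96 with cisplatin against PBS. With neomycin against PBS the differences were -0.33 and -0.48, and with cisplatin against neomycin -0.33 and -1.48. Each gave an exact permutation p of 0.1 (two-sided), the smallest that 3 against 3 libraries allow.

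**Figure D2:**
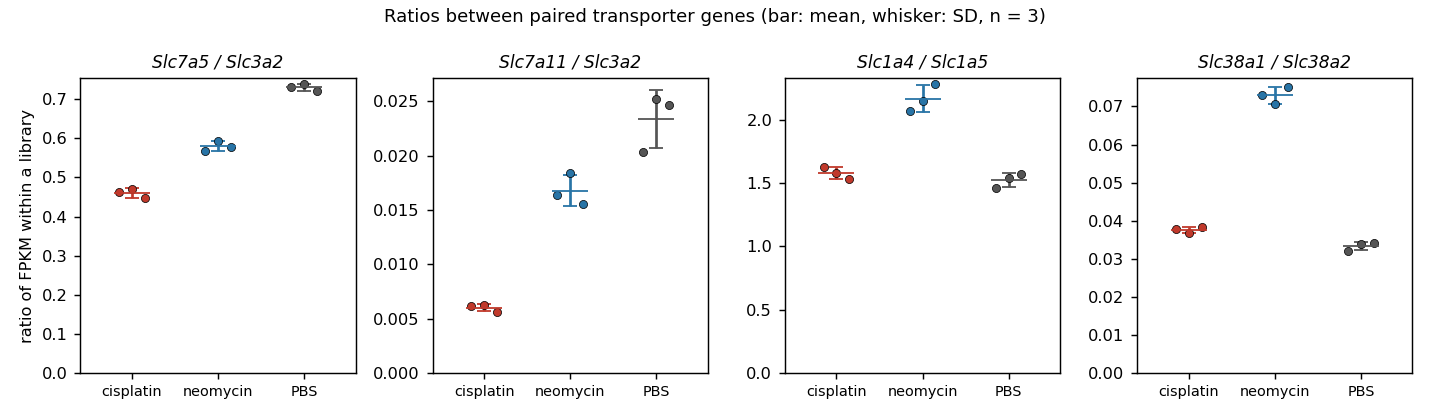
Ratio of the FPKM of 2 genes within each library, for cisplatin, neomycin and PBS from left to right; points are libraries, bars means and whiskers SD of 3 libraries. The light chains Slc7a5 and Slc7a11 were lowest relative to the heavy chain Slc3a2 with cisplatin, while the ratios Slc1a4/Slc1a5 and Slc38a1/Slc38a2 were highest with neomycin.

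Slc7a1 encodes CAT1, the uniporter of arginine and lysine. It was at 33.5, 33.5 and 31.0 FPKM with cisplatin, 20.5, 19.4 and 19.3 FPKM with neomycin and 49.7, 43.9 and 43.8 FPKM with PBS. The groups were separate, and neomycin was lowest. The log2 change was -1.17 ± 0.06 with neomycin (adjusted p = 1.9e-09) and -0.47 ± 0.06 with cisplatin (adjusted p = 2.7e-06).

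Slc1a4 and Slc1a5 encode ASCT1 and ASCT2, exchangers of small neutral amino acids, the second of which also takes glutamine. Slc1a5 was at 24.4, 25.0 and 26.0 FPKM with cisplatin, 17.4, 16.6 and 15.5 FPKM with neomycin and 41.6, 36.7 and 39.3 FPKM with PBS. Slc1a4 was at 39.6, 39.6 and 39.9 FPKM with cisplatin, 36.1, 35.7 and 35.5 FPKM with neomycin and 60.9, 56.5 and 61.6 FPKM with PBS. All drug libraries of both genes lay below PBS. Slc1a5 fell by 1.20 ± 0.06 with neomycin (adjusted p = 1.9e-09) and by 0.62 ± 0.06 with cisplatin (adjusted p = 1.8e-07). Slc1a4 fell by 0.72 ± 0.04 with neomycin (adjusted p = 1.1e-08) and by 0.58 ± 0.04 with cisplatin (adjusted p = 2.2e-08). In a ratio chosen after its values were seen, and so given with no test, the FPKM of Slc1a4 was 1.58 ± 0.05 times that of Slc1a5 with cisplatin, 2.17 ± 0.11 times with neomycin and 1.52 ± 0.05 times with PBS (SD, n = 3 each).

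Slc38a1 and Slc38a2 encode SNAT1 and SNAT2, sodium-coupled carriers of glutamine, alanine and other small neutral amino acids. SNAT2 is the form known for its induction when amino acids run short. Slc38a2 was at 149.8, 158 and 145 FPKM with cisplatin, 113, 118 and 119 FPKM with neomycin and 188, 185 and 186 FPKM with PBS. Slc38a1 was at 5.68, 5.82 and 5.56 FPKM with cisplatin, 8.29, 8.37 and 8.98 FPKM with neomycin and 6.02, 6.24 and 6.32 FPKM with PBS. Neomycin libraries were thus the lowest for Slc38a2 and the highest for Slc38a1. Slc38a2 fell by 0.66 ± 0.04 with neomycin (adjusted p = 1.8e-08) and by 0.30 ± 0.04 with cisplatin (adjusted p = 1.4e-05; 0.45 with TMM factors and 0.49 with quantile normalization). Slc38a1 rose by 0.41 ± 0.05 with neomycin (adjusted p = 1.9e-05). With cisplatin its log2 change of -0.11 ± 0.05 was not called (adjusted p = 0.093), although the cisplatin libraries all lay under the PBS libraries, and it was called lower with TMM factors (-0.23, adjusted p = 9.5e-04) and with quantile normalization (-0.18, adjusted p = 0.0046). The Slc38a1 level per Slc38a2 level, also chosen after its values were seen, was 0.0376 ± 0.0008 with cisplatin, 0.0730 ± 0.0022 with neomycin and 0.0333 ± 0.0011 with PBS (SD, n = 3 each).

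Slc6a9 encodes GlyT1, a sodium- and chloride-driven glycine carrier. It was at 14.8, 15.1 and 14.4 FPKM with cisplatin, 18.6, 17.1 and 15.6 FPKM with neomycin and 42.9, 36.4 and 37.5 FPKM with PBS. Every drug library was below every PBS library. The log2 change was -1.34 ± 0.07 with cisplatin (adjusted p = 4.8e-10) and -1.14 ± 0.07 with neomycin (adjusted p = 1.2e-08).

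Slc43a1 encodes LAT3, a facilitative carrier of branched-chain and other large neutral amino acids. It was at 1.14, 1.19 and 1.49 FPKM with cisplatin, 0.936, 0.966 and 1.18 FPKM with neomycin and 1.43, 0.966 and 1.24 FPKM with PBS. The groups overlapped, on 92 to 207 reads a library. Its log2 change was 0.04 ± 0.09 with cisplatin (adjusted p = 0.69) and -0.12 ± 0.09 with neomycin (adjusted p = 0.26), so a change was not detectable at this depth.

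**Figure D3:**
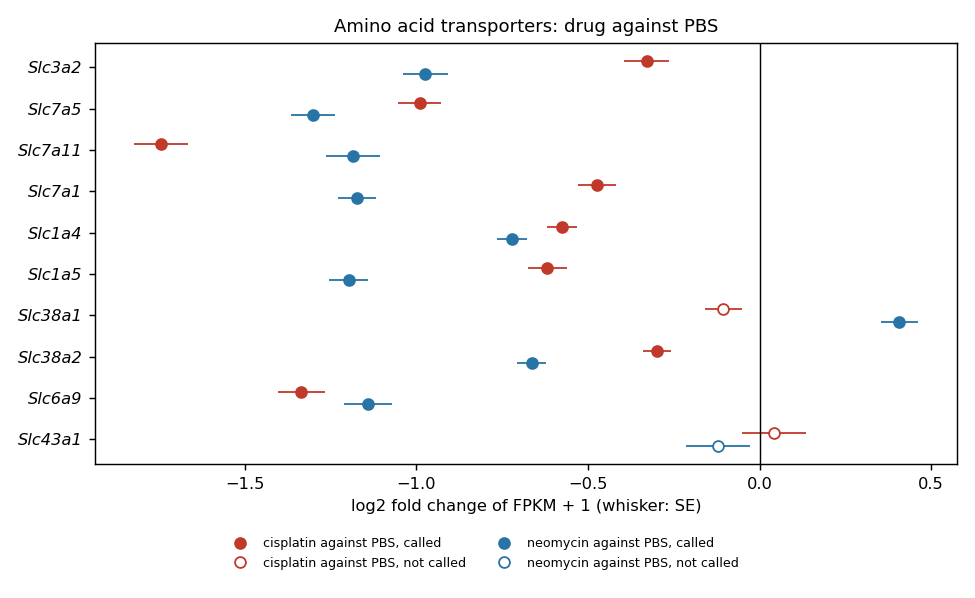
Log2 change of FPKM + 1 of the 10 transporters for cisplatin against PBS (red) and neomycin against PBS (blue); whiskers are the SE of the limma fit over 9 libraries, filled points passed the threshold of 0.05 on the adjusted p and open points did not. Slc7a11 at -1.74 and Slc6a9 at -1.34 fell most with cisplatin, and with neomycin, the drug with which Slc38a1 rose, Slc7a5 was at -1.30 and Slc7a11 at -1.19, a value that the added 1 FPKM understates.

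The drugs were also set against each other directly. Cisplatin against neomycin, 6 of the 10 carriers were higher and 3 lower, where 45% of tested genes were higher and 36.6% lower. Higher with cisplatin were Slc7a1 (log2 difference 0.70 ± 0.06, adjusted p = 3.4e-08), Slc3a2 (0.64 ± 0.06), Slc1a5 (0.58 ± 0.06), Slc38a2 (0.37 ± 0.04), Slc7a5 (0.31 ± 0.06) and Slc1a4 (0.15 ± 0.04). Lower with cisplatin were Slc7a11 (-0.56 ± 0.08, adjusted p = 1.2e-05), Slc38a1 (-0.51 ± 0.05, adjusted p = 7.5e-07) and Slc6a9 (-0.20 ± 0.07, adjusted p = 0.018). The added 1 FPKM understates the difference of Slc7a11, which was -0.79 with a pseudocount of 0.1. Of the 3 groups, mRNA of xCT and GlyT1 was thus lowest with cisplatin, and that of CAT1, 4F2hc and ASCT2 lowest with neomycin. The calls of Slc7a5, Slc1a4 and Slc6a9 depended on the scaling, the filter or 1 library. Quantile normalization gave 0.08 for Slc7a5 (adjusted p = 0.26) and -0.05 for Slc1a4 (adjusted p = 0.27), and TMM factors gave 0.09 for Slc1a4 (adjusted p = 0.0886). Slc38a2 shrank to 0.13 under quantile normalization (adjusted p = 0.020) but stayed called under all 15 alternatives. Slc6a9 was not called without cisplatin replicate 3 (adjusted p = 0.059), without neomycin replicate 1 (adjusted p = 0.092) or with no filter on low values (adjusted p = 0.061), and quantile normalization gave it -0.30. Slc43a1 (0.16 ± 0.09, adjusted p = 0.12) was called under quantile normalization (0.31, adjusted p = 0.010).

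On the FPKM scale, which allows for gene length but not for unequal sequence divergence from the gene models, the heavy chain Slc3a2 was the most abundant of the 10 in every library. Slc38a2 had rank 2 with cisplatin and neomycin and Slc7a5 rank 3, while with PBS Slc7a5 had rank 2 and Slc38a2 rank 3. Slc1a4 had rank 4 and Slc7a1 rank 5 in all 9 libraries. At the low end, Slc7a11 and Slc43a1 overlapped with cisplatin, at 1.44 to 1.60 and 1.14 to 1.49 FPKM, but not with neomycin or PBS. Slc1a5 and Slc6a9 overlapped with PBS (36.7 to 41.6 and 36.4 to 42.9 FPKM) and neomycin (15.5 to 17.4 and 15.6 to 18.6 FPKM) and were apart with cisplatin. The 10 genes summed to 645 ± 10.9 FPKM with cisplatin, 477 ± 22.1 FPKM with neomycin and 942 ± 59.1 FPKM with PBS (SD, n = 3 each). The share of Slc7a5 in that sum was 18.2 ± 0.2% with cisplatin, 19.9 ± 0.7% with neomycin and 25.0 ± 0.5% with PBS, and that of Slc38a2 was 23.4 ± 0.6%, 24.6 ± 1.8% and 19.8 ± 1.1% in the same order. In the annotation deposited with the values, KEGG placed Slc3a2 and Slc7a5 in mTOR signalling, Slc3a2 and Slc7a11 in ferroptosis, and Slc1a5, Slc38a2 and Slc3a2 in protein digestion and absorption.

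Other amino acid carriers of the plasma membrane were mostly too low to test. Of 34 listed genes 25 were in the table and 7 passed the filter. With cisplatin 5 fell and 1 rose (median log2 change -0.42), and with neomycin 2 fell and 3 rose (median 0.08; 3 fell and 2 rose with TMM factors, median 0.00). Of all tested genes 30.5% fell and 47.5% rose with cisplatin, and 28.7% fell and 37.5% rose with neomycin, so the neomycin counts are near the background. Slc6a6, the taurine carrier, was at 21.9 ± 0.6 FPKM with cisplatin, 80.0 ± 8.1 FPKM with neomycin and 66.8 ± 1.6 FPKM with PBS. It fell by 1.56 ± 0.06 on the log2 scale with cisplatin (adjusted p = 3.0e-11) and rose by 0.25 ± 0.06 with neomycin (adjusted p = 0.0023; 0.16 with TMM factors). Slc1a3, the glutamate carrier GLAST, fell with both drugs, by 0.73 ± 0.05 with neomycin and by 0.30 ± 0.05 with cisplatin. Slc36a4 fell by 0.42 ± 0.07 with cisplatin and rose by 0.44 ± 0.07 with neomycin. Slc7a6, another light chain that pairs with 4F2hc (y+LAT2), rose by 0.62 ± 0.06 with cisplatin, whereas the heavy chain Slc3a2 and the light chains Slc7a5 and Slc7a11 fell. With neomycin its change of 0.15 ± 0.06 was called (adjusted p = 0.040) but not with TMM factors (adjusted p = 0.29), nor when any of 7 libraries was left out in turn. Slc7a7, the related light chain y+LAT1, fell by 0.22 ± 0.07 with neomycin (adjusted p = 0.016; 0.055 without neomycin replicate 1 and 0.072 without PBS replicate 1). With cisplatin the change of Slc7a7 was 0.16 ± 0.07 and was not called (limma adjusted p = 0.069). Slc38a10 and the arginine carrier Slc7a2 fell by 0.63 ± 0.06 and 0.48 ± 0.07 with cisplatin. Slc1a2, named after its values were seen, averaged 0.95 FPKM over all libraries and so was not tested. It was at 0.09 ± 0.03 FPKM with cisplatin, 2.12 ± 0.17 FPKM with neomycin and 0.65 ± 0.11 FPKM with PBS, and the groups did not overlap.

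Among 8 tested amino acid carriers of the lysosome, 5 rose and 1 fell with neomycin (median log2 change 0.32), where 37.5% of all tested genes rose and 28.7% fell. Those that rose included Slc17a5 (0.49 ± 0.09), the cysteine importer Mfsd12 (0.48 ± 0.07), the cationic amino acid exporter Slc66a1 (0.43 ± 0.06) and Slc36a1 (0.38 ± 0.07). With cisplatin 5 rose and 2 fell (median 0.19), where 47.5% of all tested genes rose and 30.5% fell, and with TMM factors 2 rose and 2 fell, Slc17a5 being among those lost (0.23 ± 0.09, and 0.10 with TMM factors). Slc38a9, an arginine sensor of the lysosome, fell by 0.43 ± 0.07 with cisplatin (0.65 with voom on recovered reads). Slc15a4, the histidine and peptide carrier, rose by 1.23 ± 0.06 with cisplatin, to 16.1 ± 1.5 FPKM against 6.28 ± 0.04 FPKM with PBS. Ctns, the cystine exporter of the lysosome, fell with both drugs, by 0.41 ± 0.06 with cisplatin and by 0.43 ± 0.06 with neomycin.

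**Figure D4:**
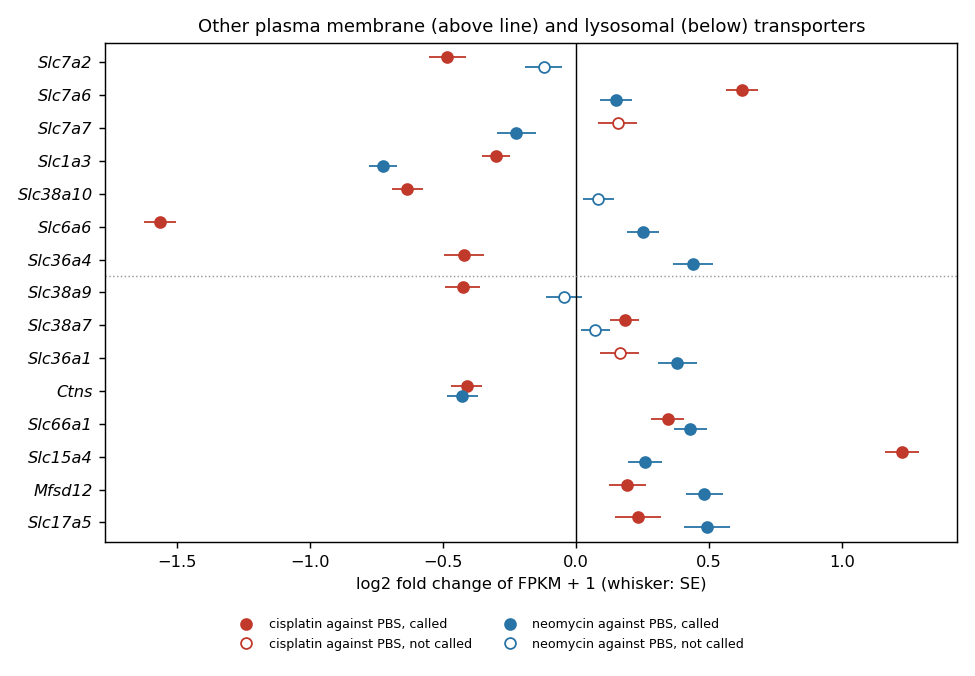
Log2 change of FPKM + 1 of the tested plasma membrane carriers outside the 10 (above the dotted line) and of lysosomal carriers (below it), for cisplatin against PBS (red) and neomycin against PBS (blue); whiskers are the SE of the limma fit and filled points passed the threshold of 0.05. Slc6a6 at -1.56 and Slc15a4 at 1.23 moved most with cisplatin, and 5 of 8 lysosomal carriers rose with neomycin.

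Of 14 genes known to regulate such carriers, 7 fell and 5 rose with cisplatin (8 and 4 with TMM factors), and 9 fell and 1 rose with neomycin (10 and 1), beside shares of all tested genes of 30.5% lower and 47.5% higher with cisplatin and 28.7% and 37.5% with neomycin. Atf4 itself was at 483 ± 16.6 FPKM with cisplatin, 244 ± 13.4 FPKM with neomycin and 359 ± 10.1 FPKM with PBS. It rose by 0.43 ± 0.05 on the log2 scale with cisplatin (0.28 with TMM factors) and fell by 0.56 ± 0.05 with neomycin, while 8 of the 10 carriers fell with each drug. Ddit3, encoding CHOP, likewise rose by 0.43 ± 0.06 with cisplatin (0.28 with TMM factors) and fell by 1.08 ± 0.06 with neomycin. Cebpb rose by 0.68 ± 0.06 with cisplatin and fell by 0.38 ± 0.06 with neomycin. Trib3, a pseudokinase that is an ATF4 target and feeds back on it, fell with both drugs, by 1.60 ± 0.10 with cisplatin and by 1.72 ± 0.10 with neomycin, as did Atf5 (0.90 ± 0.05 and 0.43 ± 0.05) and Cebpg (0.41 ± 0.05 and 0.83 ± 0.05). Myc, a known activator of Slc7a5 and Slc1a5, was at 79.7 ± 4.5 FPKM with cisplatin, 9.55 ± 1.47 FPKM with neomycin and 41.8 ± 3.0 FPKM with PBS. Among the kinases that trigger the ATF4 response, Eif2ak3 was not called with either drug, and Eif2ak1 changed by -0.04 ± 0.05 with cisplatin and -0.10 ± 0.05 with neomycin without being called, although it was with TMM factors (-0.19 and -0.18). Eif2ak4, the kinase that senses uncharged tRNA, changed by -0.19 ± 0.06 with cisplatin (adjusted p = 0.014; log2 change -0.32 with TMM factors; adjusted p 0.053 without cisplatin replicate 3 and 0.062 without PBS replicate 2), and Eif2ak2 by 0.22 ± 0.06 (adjusted p = 0.0024), which TMM factors reduced to 0.08 (adjusted p = 0.22). Nfe2l2, which encodes NRF2, fell by 0.43 ± 0.04 with cisplatin and by 0.49 ± 0.04 with neomycin. Its repressor Keap1 fell by 0.42 ± 0.07 with cisplatin and rose by 0.35 ± 0.07 with neomycin, and Bach1, a repressor at NRF2 sites, fell by 0.24 ± 0.05 with each (0.37 for cisplatin with TMM factors). All of these are mRNA levels, and the activity of the regulator proteins was not tested.

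Of 7 genes that use cystine or glutathione, Gclc, the catalytic subunit of the first enzyme of glutathione synthesis, fell with both drugs. It was at 44.1 ± 1.7 FPKM with cisplatin, 119.9 ± 3.1 FPKM with neomycin and 148 ± 2.7 FPKM with PBS, a log2 change of -1.73 ± 0.04 and of -0.30 ± 0.04 with cisplatin and neomycin against PBS. Chac1, which degrades glutathione, fell by 1.28 ± 0.06 with cisplatin and by 1.42 ± 0.06 with neomycin. Ggct rose by 0.88 ± 0.08 with cisplatin, and its change of 0.19 ± 0.08 with neomycin (adjusted p = 0.048) was not called with TMM factors (adjusted p = 0.21). Txnrd1 rose by 0.27 ± 0.04 with cisplatin (0.12 with TMM factors, and 0.09 with adjusted p = 0.065 under quantile normalization) and fell by 0.28 ± 0.04 with neomycin, and Gpx4 rose by 0.50 ± 0.07 with neomycin. In all, 4 rose and 2 fell with cisplatin and 2 rose and 3 fell with neomycin, beside 47.5% higher and 30.5% lower, and 37.5% and 28.7%, of all tested genes. However, the cisplatin rises of Gpx4 (0.16, adjusted p = 0.039) and Gclm (0.17, adjusted p = 0.043) were not called with TMM factors (adjusted p = 0.89 and 0.74) or without PBS replicate 3 (adjusted p = 0.20 and 0.21). Gss, glutathione synthetase, had log2 changes of 0.01 ± 0.05 with cisplatin and -0.07 ± 0.05 with neomycin, neither called, and of -0.14 and -0.15 with TMM factors, both called.

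**Figure D5:**
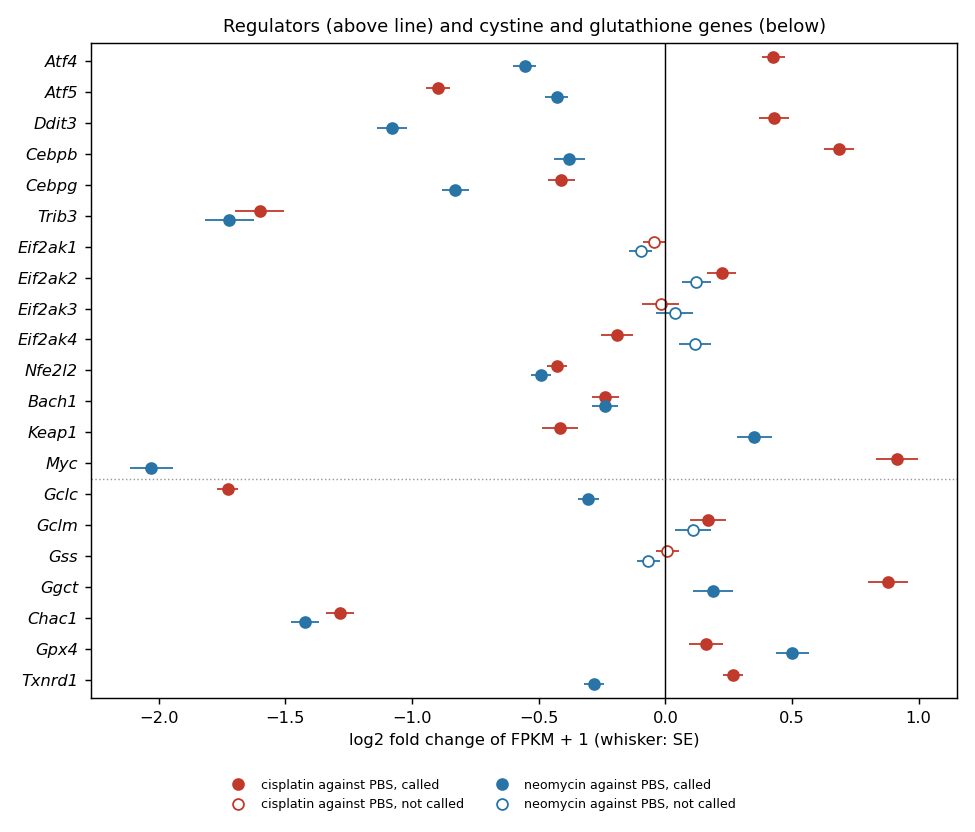
Log2 change of FPKM + 1 of regulators of the carriers (above the dotted line) and of genes that use cystine or glutathione (below it), for cisplatin against PBS (red) and neomycin against PBS (blue); whiskers are the SE of the limma fit and filled points passed the threshold of 0.05. Atf4, Ddit3, Cebpb and Myc rose with cisplatin and fell with neomycin, while Trib3, Chac1, Atf5 and Nfe2l2 fell with both.

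The mTORC1 pathway senses what the carriers bring in, and 35 of its 36 listed genes were tested. With cisplatin 14 rose and 15 fell (median log2 change 0.03, and -0.09 with TMM factors), and with neomycin 18 rose and 9 fell (median 0.24). Of all tested genes 47.5% rose and 30.5% fell with cisplatin, and 37.5% rose and 28.7% fell with neomycin. Sesn2, the leucine sensor Sestrin2, fell by 1.42 ± 0.06 with cisplatin and by 1.14 ± 0.06 with neomycin. Castor2, a paralog of the arginine sensor, rose by 1.19 ± 0.08 with neomycin, at 9.28 ± 0.95 FPKM against 3.51 ± 0.42 FPKM with PBS, and fell by 0.74 ± 0.08 with cisplatin. Castor1, the arginine sensor, rose by 0.85 ± 0.07 with neomycin and by 0.46 ± 0.07 with cisplatin. The RAG GTPase gene Rragd rose by 0.90 ± 0.11 with neomycin (1.42 with voom on recovered reads), and Itfg2, of the KICSTOR complex, fell by 0.94 ± 0.07. With cisplatin the Ragulator gene Lamtor3 and the folliculin gene Flcn rose by 0.89 ± 0.05 and 0.83 ± 0.06, and Sesn3 and Nprl2 fell by 1.08 ± 0.06 and 0.75 ± 0.06.

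Among the tested genes other than predicted genes and pseudogenes, those nearest in profile to the light chains Slc7a5 and Slc7a11 were sought. The measure was the root mean square difference, over the 9 libraries, of log2(FPKM + 1) minus its PBS mean. Those nearest to Slc7a5 were the linker histone H1f0 (difference 0.12), the transcription factors Osr1 and Snai2 (0.14 each), the asparagine synthetase gene Asns and Btg1 (0.17 each). Asns, for example, changed by -1.05 with cisplatin and -1.02 with neomycin on the log2 scale. Those nearest to Slc7a11 were the transcription factor Foxc1 (0.14), Sesn2 (0.21), the transcription factor Zic2 and the receptor gene Lgr4 (0.23 each) and Aldh1l2, a mitochondrial folate enzyme (0.24). Foxc1 changed by -1.76 with cisplatin and -1.03 with neomycin.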

How the data were processed

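The authors deposited FPKM values per gene, per the file headers and the name of the table, for 9 libraries. Per the labels' protocols, RNA came from a spin-column kit and libraries from a SMARTER mRNA kit. The aligner, counter and strand setting were not given in the sources read. Labels and table annotation name rat, but the line is of mouse origin and mm10 is the build in the submitters' processing notes, so no coordinates of the values are given and levels of different genes may be affected unequally by sequence divergence. Values were whole multiples of the worth of 1 read, and whole reads were recovered for all 19608 genes within 0.001 of a read. The smallest gene length that made all values of a gene whole was taken, so counts of genes with few reads may be too low. The depth sets the precision: 3 reads are worth 0.0746 to 0.109 FPKM at a length of 1 kb.

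Groups and replicate numbers came from the sample titles. Separate cultures are not stated, so p-values reflect only how these samples vary, possibly for technical reasons. The 10532 genes averaging 1 FPKM or more over all libraries were put through limma 3.58.1 (R 4.3.3) as log2(FPKM + 1), with 1 mean per group, all 9 libraries in 1 fit, a mean-variance trend and Benjamini-Hochberg adjustment over all tested genes in each comparison, with a threshold of 0.05. A fold change is on the log2(FPKM + 1) scale, which understates changes of low genes. The test was checked on simulated data. Few genes were changed in that check, so it did not cover the scaling of the libraries. Ratios were compared by two-sided exact permutation tests. The 10 genes and the other lists were chosen with earlier results of these data known. Of the other lists, all regulators and cystine and glutathione genes were eligible to be named, and up to 5 called genes per list and drug, by size, from the rest. Slc1a2 was named outside this rule, after its values were seen. Alternatives were a pseudocount of 0.1, no filter, TMM factors, quantile normalization, voom on recovered reads, a replicate block and leaving out each library.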

Additional observations from a re-analysis of the deposited data

How the results depend on the processing

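For cisplatin and neomycin against PBS, the calls of the 10 carriers were the same under all 15 alternatives, except that Slc38a1 was called lower with cisplatin under TMM factors and quantile normalization. Between the drugs, 8 or 9 carriers were called under every alternative, and quantile normalization turned the difference of Slc1a4 to -0.052 (the cause was not tested). Leaving out single libraries gave 8 called carriers for cisplatin and 9 for neomycin against PBS each time, and between 7848 and 8268, and 6447 and 6851, genes called in all. For cisplatin against neomycin the ranges were 8 to 9 carriers and 8272 to 8723 genes. The log2 difference of Slc7a5 relative to Slc3a2 lay between -0.68 and -0.64 for cisplatin and between -0.35 and -0.32 for neomycin against PBS, and that of Slc7a11 between -2.05 and -1.90 and between -0.58 and -0.42. TMM factors cancel within these ratios.

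Correlations of deviations from the group means ran from -0.05 to 0.30 between libraries of equal replicate number. Between libraries of unequal number they ran from -0.29 to 0.19. Whether libraries of equal number were handled together is not stated and was not tested. With the replicate number as a block, 8, 9 and 9 carriers were called for cisplatin against PBS, neomycin against PBS and cisplatin against neomycin, as without it, and 8424, 7261 and 8746 genes in all against 8216, 6973 and 8598. Voom on the recovered whole reads called 8312, 6980 and 8592 genes.

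Among the other named genes calls were lost in 50 fits over 9 changes, all of them small, namely Slc17a5, Gclm, Gpx4, Txnrd1, Eif2ak2 and Eif2ak4 with cisplatin and Slc7a6, Slc7a7 and Ggct with neomycin. Calls were gained in 12 fits, of Gss, Eif2ak1, Eif2ak2 and Gclm. Quantile normalization turned Gpx4 with cisplatin to -0.015. Depth was low for Slc43a1, on 92 to 207 reads a library, and for Rragd, on 42 to 142.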
